A study of Mus musculus with 21 samples.

Results

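Glucose uptake and upper glycolysis were followed through 10 genes, chosen by name: the glucose transporter genes Slc2a1 and Slc2a3, the hexokinase genes Hk1 and Hk2, the phosphoglucose isomerase gene Gpi1, the phosphofructokinase genes Pfkl, Pfkm and Pfkp, and the bifunctional enzyme genes Pfkfb3 and Pfkfb4. They are 10 of the 40838 genes listed in each of 2 tables of raw read counts from mouse embryonic stem cells (ESCs), pluripotent cells kept in culture. All 10 had reads in every library and passed the filter on low counts in both tables. The first table holds 15 libraries: SLC16A1 clone 1, SLC16A1 clone 2 and a line called chr8A, read here as the control, with 2 libraries of each in SL2i medium and 3 libraries of each in SL medium. The second table holds 3 libraries of LbNOX cells and 3 of vector cells, all in SL. SL2i was read as serum and leukemia inhibitory factor (LIF) with 2i, which inhibits GSK3B and MEK, and SL as serum and LIF alone. Every group was kept for 48 h in medium that held 0.2 mM pyruvate and 10% serum that had been dialyzed. SLC16A1 encodes MCT1, a carrier of pyruvate and lactate; each clone is a separate line, and the sources used here do not say how its gene was altered. LbNOX is a water-forming NADH oxidase from a bacterium; the promoter that drives it is not given either. Replicates are separate libraries of a given line and medium, with nothing to show separate cultures, so p-values reflect a spread that may be technical.

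Glucose enters cells through facilitative transporters of the SLC2A (GLUT) family, and hexokinases then phosphorylate it, which holds it inside the cell. Phosphoglucose isomerase turns glucose 6-phosphate into fructose 6-phosphate, and phosphofructokinase adds a second phosphate, the committed and most tightly controlled step of glycolysis. The bifunctional PFKFB enzymes make and break down fructose 2,6-bisphosphate, the strongest known activator of phosphofructokinase. Pluripotent cells are known for active glycolysis, and mouse ESCs in the naive state that 2i maintains are known to combine it with respiration.

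The upstream regions of 5 genes are printed because these had the widest ranges of group means, mainly between media: Slc2a1, Pfkl and Pfkfb3 were lower in SL2i in all 3 lines, and Hk1 and Pfkp were higher. Each sequence runs 5′ to 3′ on the gene's strand from 250 bases before the annotated start to 50 bases after it, from RefSeq on build GRCm38.p6. Capitals mark ACGTG, the core of the hypoxia response element, and GCGTG, its common variant, on either strand (CACGT and CACGC on the printed one); the E-box CACGTG, bound by Myc and MondoA family factors, overlaps ACGTG and, being a palindrome, counts as 2 overlapping matches, 1 per strand.
Slc2a1 (chr4:119108495-119108794, + strand): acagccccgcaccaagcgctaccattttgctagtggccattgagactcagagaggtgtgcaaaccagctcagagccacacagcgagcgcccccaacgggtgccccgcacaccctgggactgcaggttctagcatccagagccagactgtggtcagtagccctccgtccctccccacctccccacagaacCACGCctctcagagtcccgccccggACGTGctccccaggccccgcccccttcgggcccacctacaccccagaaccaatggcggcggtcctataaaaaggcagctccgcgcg
Hk1 (chr10:62340372-62340671, - strand, first of 2 start sites): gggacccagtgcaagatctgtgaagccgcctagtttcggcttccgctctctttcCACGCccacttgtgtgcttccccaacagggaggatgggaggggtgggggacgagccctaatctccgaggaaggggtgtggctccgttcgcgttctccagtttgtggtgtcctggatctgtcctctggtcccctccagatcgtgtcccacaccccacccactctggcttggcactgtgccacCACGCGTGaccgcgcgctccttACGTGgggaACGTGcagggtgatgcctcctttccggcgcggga
Pfkl (chr10:78009758-78010057, - strand): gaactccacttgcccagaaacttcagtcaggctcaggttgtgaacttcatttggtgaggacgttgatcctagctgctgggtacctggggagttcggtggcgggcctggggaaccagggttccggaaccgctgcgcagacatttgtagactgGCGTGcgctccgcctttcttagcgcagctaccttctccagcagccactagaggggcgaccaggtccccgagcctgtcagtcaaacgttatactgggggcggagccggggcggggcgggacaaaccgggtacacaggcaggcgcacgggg
Pfkfb3 (chr2:11502041-11502340, - strand, first of 2 start sites): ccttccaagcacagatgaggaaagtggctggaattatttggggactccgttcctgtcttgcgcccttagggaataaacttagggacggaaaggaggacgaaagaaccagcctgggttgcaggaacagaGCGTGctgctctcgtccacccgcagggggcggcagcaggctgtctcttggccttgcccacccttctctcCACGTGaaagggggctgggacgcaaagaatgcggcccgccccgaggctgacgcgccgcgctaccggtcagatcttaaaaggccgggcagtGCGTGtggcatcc
Pfkp (chr13:6648722-6649021, - strand): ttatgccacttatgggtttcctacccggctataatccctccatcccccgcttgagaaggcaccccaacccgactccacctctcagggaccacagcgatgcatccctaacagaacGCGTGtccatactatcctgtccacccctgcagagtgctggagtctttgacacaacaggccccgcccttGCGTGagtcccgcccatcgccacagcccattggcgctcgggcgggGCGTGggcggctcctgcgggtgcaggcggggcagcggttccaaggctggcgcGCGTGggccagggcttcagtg
Slc2a1 held 2 matches to either core, Hk1 5, Pfkl 1, Pfkfb3 4 (its E-box giving 2 of them) and Pfkp 4. Of 32851 mouse promoters of the same length, 43.8% held at least 1 match and 8.93% held at least 3, so genes that fell and genes that rose were both among those with more matches than most promoters. Start sites are numbered by ascending coordinate. Hk1 and Pfkfb3 lie on the - strand, so the site printed as the first is the downstream one in both. The second start site, which lies upstream, held 1 match in Pfkfb3 and 0 in Hk1. Windows were matched for 9 of the 10 genes. Pfkm, which rose in SL2i, had 3 matches at the first of its 4 start sites and 2, 1 and 0 at the others. Hk2 had 2 matches, Pfkfb4 had 1 and Gpi1 had 0. The E-box stood in the printed Pfkfb3 window, in the first Pfkm window and in no other window of the 9 genes, and in 7.15% of all promoters. A match describes letters in a window and is not a bound site.

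Depth differed between the media. Total counts were 9784408 to 10908368 per library in SL2i, 15802072 to 30145771 in SL, and 16521594 to 30008895 in the LbNOX table. Levels are counts scaled to library size (CPM) with TMM factors, and the tables were normalized separately. The 10 embryonic stem cell markers were read in every group, and their summed level was 7431 to 7882 CPM in SL2i libraries and 5077 to 5744 CPM in SL libraries of both tables. They did not move together: by the edgeR test described below, 7 were higher and 3 lower in SL2i in each line. Of all genes in chr8A, 36.1% were higher and 36.8% lower by that test. Fibroblast markers summed to at most 4.93 CPM in SL2i, with Col3a1, Dcn and Postn at 0 in every SL2i group, and to 22.4 to 47.0 CPM in SL. Trophoblast markers summed to at most 88.1 CPM in SL2i and to 462 to 716 CPM in SL. The sum follows the more abundant of them: of 5 tested, 2 were higher and 3 lower in SL2i in each line. Endoderm markers summed to at most 4.74 CPM in SL2i and at most 9.60 CPM in SL, and neural and mesoderm markers to at most 42.3 CPM in SL2i and 148 to 299.5 CPM in SL. Of 4 tested neural and mesoderm markers, 1 was higher and 2 lower in SL2i in each line. Of 4 tested endoderm markers, 2 were lower in each line, and 1 was higher in chr8A and in clone 2. These sums moved with the medium, and the part of the markers in the results below was not tested. In such bulk samples, fewer cells of a type and less RNA per cell cannot be told apart.

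Per length, Slc2a1 and Slc2a3 had the highest levels of the 10 in every SL group, while in every SL2i group Slc2a3 was followed by Gpi1. The lowest was Pfkfb3 or Pfkfb4 in every group. In SL2i chr8A cells Gpi1 stood at 236 CPM per kb and Slc2a1 at 82.98 CPM per kb. In chr8A cells Slc2a3 stood at 285 CPM per kb in SL2i and 373 CPM per kb in SL. Pfkfb4 stood at 1.35 CPM per kb in SL2i and 0.720 in SL. Lengths are those in the count table. The Pfkp entry, at 11760 bases, was the longest of the 10, so its level per length may be understated if the transcript made is shorter. Over the 6 groups of the first table the range of group means, on the log2 scale, was widest for Pfkfb3 (3.20), then Slc2a1 (2.13), Hk1 (2.03), Pfkp (1.37) and Pfkl (1.32), and narrowest for Slc2a3 (0.39) and Hk2 (0.08).

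**Figure D1:**
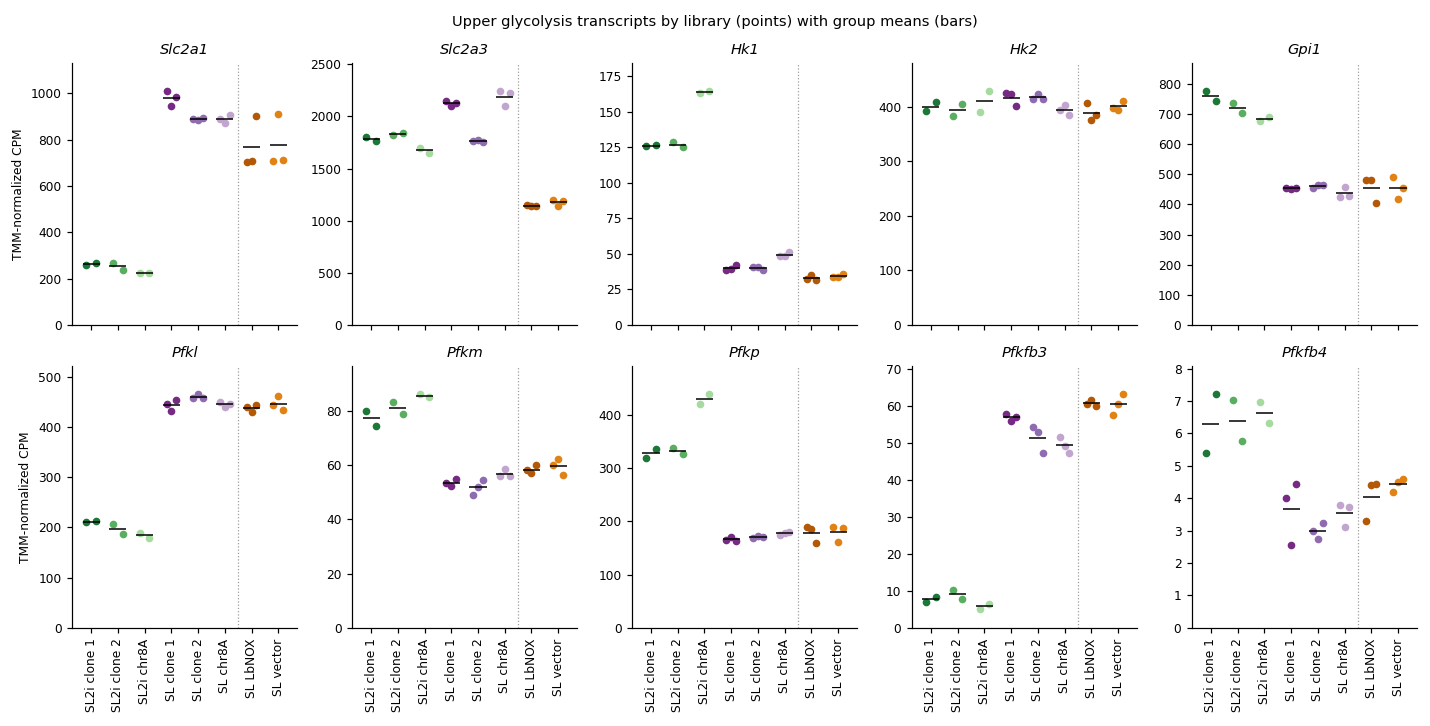
Level of each of the 10 genes in every library, in CPM on linear axes that start at 0; points are libraries, bars are group means, and the dotted line separates the LbNOX table, which was normalized on its own. Slc2a1, Pfkl and Pfkfb3 sit lower in the SL2i groups than in the SL groups beside them, Hk1, Gpi1, Pfkm, Pfkp and Pfkfb4 sit higher, and Hk2 stays between 384 and 429 CPM across the first table.

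The medium comparison asked how the transcripts differ between cells kept with and without the GSK3B and MEK inhibitors. In all 3 lines the same 3 genes fell in SL2i (Slc2a1, Pfkl and Pfkfb3) and the same 5 rose (Hk1, Gpi1, Pfkm, Pfkp and Pfkfb4). Slc2a3 fell in chr8A and clone 1, and Hk2 fell slightly in clone 2; neither passed the test in the remaining line or lines. Each line has its own libraries in each medium, so these 3 comparisons share none. In chr8A, 9 of the 10 genes passed edgeR's quasi-likelihood test at a Benjamini-Hochberg adjusted p under 0.05, 5 higher and 4 lower, when 72.8% of all 17178 genes tested did, 36.1% higher and 36.8% lower. In clone 1 it was again 5 higher and 4 lower, against 73% of all genes (35.9% higher, 37.1% lower). In clone 2 it was 5 higher and 4 lower, against 73.1% (35.8% higher, 37.2% lower). A count of calls near that background is not a result about these genes. With all libraries thinned to the same total, a setting added after the data were seen and called equal depth below, the calls were 9, 9 and 8. The share of all genes called at that depth is not given here, so these counts have no background. By size, 3 of the 10 fell by at least 2-fold in each line, against 20% of all genes in chr8A. Those that rose by at least 2-fold were 2 in chr8A, 1 in clone 1 and 2 in clone 2, against 14.4% of all genes in chr8A. In chr8A these 2-fold counts lay within 1 gene of the background, and for the clones no 2-fold background is given. The median log2 fold change of the 10 was 0.32 in chr8A, 0.24 in clone 1 and 0.35 in clone 2, beside medians of 0.00, 0.00 and -0.01 over all genes.

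Of the transporters, Slc2a1, the widely expressed GLUT1, fell nearly 4-fold. In chr8A it had 222 and 223 CPM in SL2i, against 890, 871 and 905 CPM in SL. Clone 1 had 257 and 266 CPM in SL2i, against 1009, 945 and 983 CPM in SL. Clone 2 had 267 and 238 CPM in SL2i, against 887, 885 and 895 CPM in SL. The media did not overlap in any line. The log2 fold change was -2.0 ± 0.037 (SE), or 3.99-fold lower, in chr8A, -1.90 ± 0.036 in clone 1 and -1.82 ± 0.036 in clone 2, and edgeR's largest adjusted p of the 3 was 3.73e-68.

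Slc2a3, the GLUT3 transporter with high affinity for glucose, changed far less. It had 1698 and 1648 CPM in SL2i chr8A cells, against 2243, 2095 and 2226 CPM in SL. In clone 1 it had 1806 and 1761 CPM in SL2i, against 2152, 2096 and 2133 CPM in SL. Those 2 lines were lower in SL2i without overlap, by a log2 fold change of -0.39 ± 0.031 in chr8A and -0.25 ± 0.031 in clone 1. Clone 2 had 1822 and 1844 CPM in SL2i, against 1764, 1777 and 1752 CPM in SL. Its log2 fold change, 0.05 ± 0.031 (95% interval -0.01 to 0.12), did not pass edgeR's test (adjusted p = 0.0986). Per length, Slc2a1 made up 22.5% ± 0.44 (SD, n = 2) of the summed transporter transcripts in SL2i chr8A cells and 47.1% ± 0.57 (n = 3) in SL, while the sum itself was 368 ± 5.84 and 705 ± 19.5 CPM per kb.

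The hexokinases also differed from each other, but with a rise of 1 gene rather than a fall. Hk1, the widely expressed isoform often called the housekeeping hexokinase, rose more than 3-fold. Hk1 had 164 and 165 CPM in SL2i chr8A cells, against 48.6, 48.5 and 51.5 CPM in SL. It had 126 and 127 CPM in SL2i clone 1 cells, against 38.7, 39.3 and 42.1 CPM in SL, and 129 and 125 CPM in SL2i clone 2 cells, against 40.6, 40.5 and 38.4 CPM in SL. No SL2i library came near an SL library, and the log2 fold changes were 1.73 ± 0.046, 1.66 ± 0.052 and 1.68 ± 0.050 in chr8A, clone 1 and clone 2 (edgeR's largest adjusted p was 3.98e-52). Hk2, the inducible isoform that binds mitochondria in many proliferating and tumor cells, had 391 and 429 CPM in SL2i chr8A cells and 395, 403 and 386 CPM in SL. Its media overlapped in chr8A and in clone 1, where the log2 fold changes were 0.06 ± 0.034 and -0.06 ± 0.034. In clone 2 it was -0.08 ± 0.034 (edgeR adjusted p = 0.027), but at equal depth it was -0.07 with an adjusted p of 0.0599. That call also rested on single libraries: without SL2i clone 2 replicate 1 the Hk2 value was -0.06 (adjusted p = 0.247), and without SL clone 2 replicate 2 it was -0.07 (adjusted p = 0.0836).

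With Hk2 near level and Hk1 higher, Hk1 made up 30.8% ± 1.30 (SD, n = 2) of the 2 hexokinase transcripts per length in SL2i chr8A cells, and 12.3% ± 0.60 (n = 3) in SL. Hk2 stayed the larger part in every group. The hexokinase sum was 98.7 ± 4.60 CPM per kb in SL2i and 74.9 ± 1.20 in SL.

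Gpi1, the isomerase between hexokinase and phosphofructokinase, had 676 and 689 CPM in SL2i chr8A cells, against 426, 457 and 427 CPM in SL. It was higher in SL2i in each line without overlap, by log2 fold changes of 0.64 ± 0.032, 0.74 ± 0.032 and 0.65 ± 0.032 in chr8A, clone 1 and clone 2 (edgeR's largest adjusted p was 6.19e-36). Of the 30-base words of the Gpi1 transcripts, 22.0% also occur in another gene, chiefly in Gm1840, so its reads could be split or shared and its value is uncertain.

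Among the phosphofructokinases, Pfkl and Pfkp moved in opposite directions. Pfkl, the liver-type subunit, fell by 2.10-fold to 2.42-fold over the 3 lines, while Pfkp, the platelet type, rose by 1.94-fold to 2.42-fold. Pfkl had 189 and 180 CPM in SL2i chr8A cells, against 451, 441 and 446 CPM in SL. Pfkp had 420 and 439 CPM in SL2i chr8A cells, against 175, 178 and 179 CPM in SL. All libraries of SL2i thus lay on the far side of all SL libraries for both genes, in opposite directions. The log2 fold change of Pfkl was -1.28 ± 0.036 in chr8A, -1.07 ± 0.036 in clone 1 and -1.23 ± 0.035 in clone 2, and that of Pfkp was 1.28 ± 0.033, 0.98 ± 0.035 and 0.95 ± 0.034. EdgeR's largest adjusted p among these 6 was 4.37e-50.

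Pfkm, the muscle-type subunit, rose moderately. It had 86.3 and 85.0 CPM in SL2i chr8A cells, against 56.0, 58.7 and 56.1 CPM in SL, a log2 fold change of 0.59 ± 0.053. The corresponding changes were 0.53 ± 0.057 in clone 1 and 0.64 ± 0.055 in clone 2, and the media did not overlap in any line. Per length, the subunits in SL2i chr8A cells were 42.0% ± 1.20 Pfkl, 24.0% ± 0.11 Pfkm and 34.0% ± 1.30 Pfkp (SD, n = 2). In SL chr8A cells they were 77.3% ± 0.49 Pfkl, 12.1% ± 0.38 Pfkm and 10.6% ± 0.17 Pfkp (SD, n = 3). The sum of the 3 was 107.5 ± 0.66 CPM per kb in SL2i and 141.7 ± 0.72 in SL. Pfkm shares 9.38% of its 30-base words with another gene and Pfkp 5.31%, and both overlap a neighboring gene (Senp1 and Pitrm1). The sources used here do not say whether reads were counted by strand, so both values are uncertain to that degree. Slc2a1, Slc2a3, Hk1 and Pfkfb3 also overlap other annotated genes, so the limit on strand holds for them too. Their shared words were 2.12%, 2.6%, 1.47% and 0.668%.

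**Figure D2:**
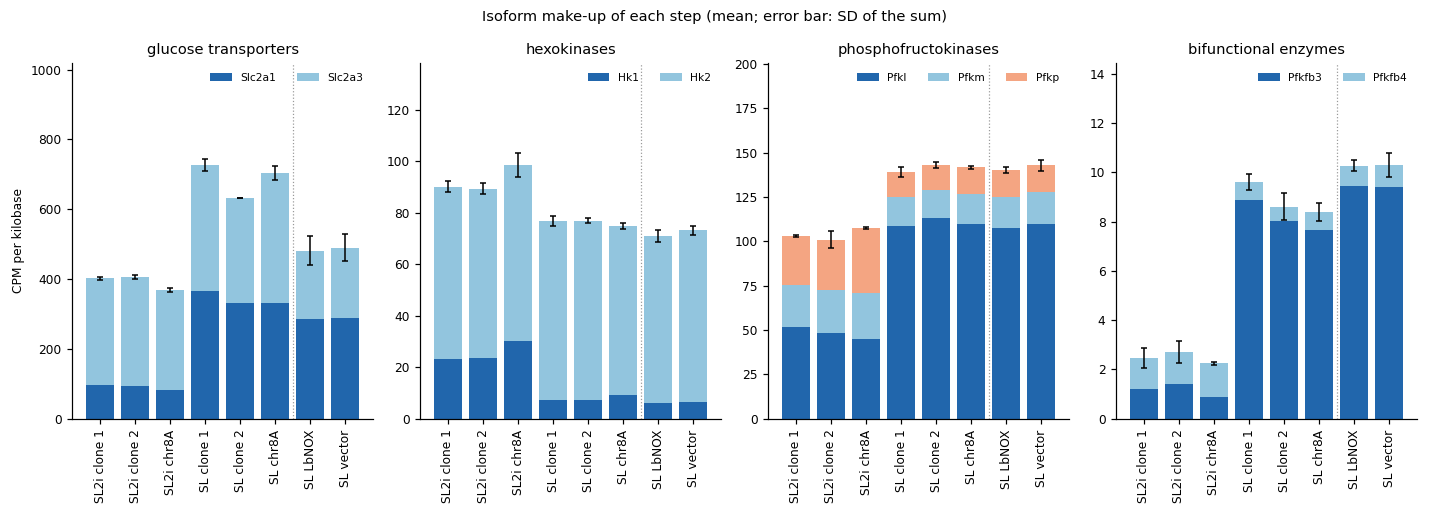
Summed level per length (CPM per kb, linear axes from 0) of the transporters, hexokinases, phosphofructokinases and bifunctional enzymes, stacked by gene, with SL2i groups left of SL groups; error bars are the SD of the sum over libraries. The phosphofructokinase bar of SL2i chr8A holds 42.0% Pfkl, against 77.3% in SL chr8A.

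Of the bifunctional enzymes, Pfkfb3, whose product favors synthesis of fructose 2,6-bisphosphate, fell the most of all 10 genes. Pfkfb3 had 5.12 and 6.42 CPM in SL2i chr8A cells, against 51.6, 49.2 and 47.1 CPM in SL. In clone 1 it had 7.07 and 8.39 CPM in SL2i, against 57.9, 56.0 and 57.1 CPM in SL, and in clone 2 10.3 and 7.78 CPM in SL2i, against 54.2, 52.9 and 47.2 CPM in SL. The highest SL2i library lay far below the lowest SL library. The SL2i libraries held 53 to 104 reads of Pfkfb3 each, so its level there is less precise than in SL, where they held 874 to 1623. The log2 fold change was -3.09 ± 0.11 in chr8A, -2.88 ± 0.10 in clone 1 and -2.50 ± 0.099 in clone 2, or 8.54-fold, 7.35-fold and 5.67-fold lower (edgeR's largest adjusted p was 3.61e-43). Pfkfb3 ranked 1192 from the lowest log2 fold change among all 17178 genes in chr8A.

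Pfkfb4, the other bifunctional enzyme followed, was rare in both media and moved the other way. It had 6.96 and 6.32 CPM in SL2i chr8A cells, against 3.80, 3.11 and 3.74 CPM in SL, and 51 to 74 reads per SL2i library. Its log2 fold change was 0.90 ± 0.19 in chr8A, 0.78 ± 0.20 in clone 1 and 1.10 ± 0.20 in clone 2, without overlap of the media in any line. The clone 1 call rested on SL2i clone 1 replicate 2: without it the Pfkfb4 value was 0.54, with an edgeR adjusted p of 0.0772. Pfkfb3 made up 39.9% ± 5.45 of the 2 transcripts per length in SL2i chr8A cells and 91.4% ± 0.90 in SL, and their sum was 2.24 ± 0.051 and 8.39 ± 0.36 CPM per kb (SD, n = 2 in SL2i and 3 in SL).

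**Figure D3:**
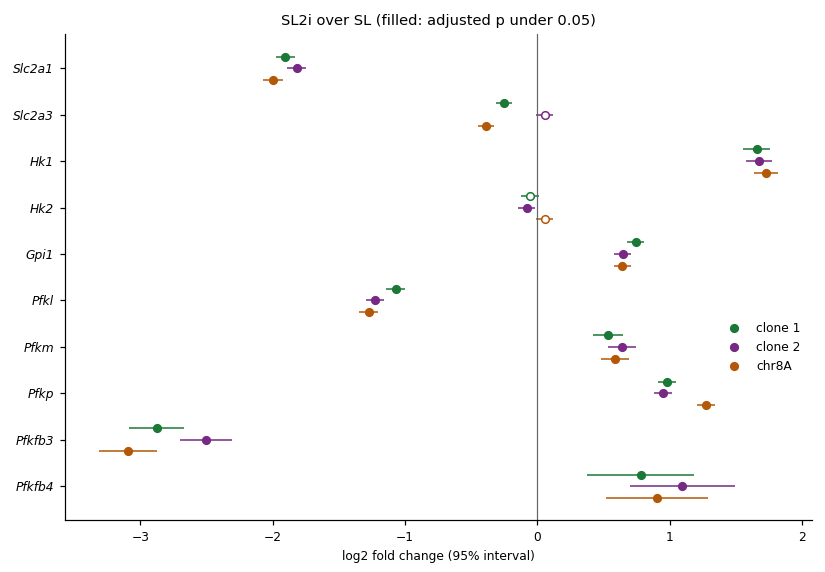
Log2 fold change of each gene between SL2i and SL in clone 1, clone 2 and chr8A, with 95% intervals; filled points passed edgeR's test at an adjusted p under 0.05. Slc2a1, Pfkl and Pfkfb3 lie left of 0 in all 3 lines, at -1.07 or below, and Hk1 and Pfkp lie at 0.95 or above.

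Ratios between genes of the same step were compared over all 15 libraries, shuffling the media within each line, which gives 1000 arrangements. All 5 ratios tested differed between the media, each at the smallest p that this two-sided exact permutation test allows (p = 0.001, also after adjustment over the 5). Ratios of other gene pairs were not computed as a background, and 72.8% of all single genes were called between the media in chr8A. The count of 5 is thus not a result about these genes, and Pfkp over Pfkl and Pfkm over Pfkl share Pfkl. On the log2 scale, Slc2a3 over Slc2a1 was higher in SL2i by 1.71, Hk2 over Hk1 differed by -1.71, Pfkp over Pfkl was higher by 2.26, Pfkm over Pfkl by 1.78 and Pfkfb4 over Pfkfb3 by 3.76. As an example, Pfkp over Pfkl in counts was 1.22 ± 0.097 on the log2 scale in SL2i chr8A cells (SD, n = 2) and -1.33 ± 0.030 in SL (n = 3).

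The clone comparisons asked what differs between cells of the SLC16A1 clones and chr8A in the same medium. Both clones were set against the same chr8A libraries, so their results are not independent of each other. The largest difference was 0.65 on the log2 scale. Markers of other cell types also differed between the clones and chr8A. Trophoblast markers in SL2i summed to 86.9 to 88.1 CPM in clone 1 and 82.8 to 84.7 CPM in clone 2, against 30.05 to 35.05 CPM in chr8A. In SL they summed to 674 to 716 CPM in clone 1 and 490.4 to 552 CPM in clone 2, against 599 to 617 CPM in chr8A. Neural and mesoderm markers summed to 28.1 to 30.9 CPM in the clones in SL2i, against 37.2 to 42.3 CPM in chr8A, and to 283 to 299.5 CPM in the clones in SL, against 224 to 237 CPM in chr8A. This list was mixed: of 4 tested, 1 was higher and 1 lower in each clone in SL2i by edgeR's test. In SL, 1 was higher and 0 lower in each clone. The part of these markers in the clone results was not tested. In SL2i, clone 1 had 6 of the 10 genes called, 4 higher and 2 lower, against 22.4% of all genes (10.4% higher, 12.1% lower). Clone 2 had 5, 3 higher and 2 lower, against 20.6% (9.74% higher, 10.8% lower). In SL, clone 1 had 5 called, 3 higher and 2 lower, against 16.6% (8.83% higher, 7.77% lower). Clone 2 had 5, 2 higher and 3 lower, against 26.9% (14.3% higher, 12.6% lower). The member medians lay within 0.03 of 0 in these 4 comparisons, and those of all genes at 0.00. DESeq2 called 3 of the 10 in clone 1 and 2 in clone 2 in SL, and 2 in each at equal depth, so the calls of small differences in SL depend on the method. Of all genes, DESeq2 called 1793 of 12602 in clone 1 and 2865 of 13775 in clone 2. At equal depth 1845 and 2987 of 15779 were called, so these member counts are read beside those shares. The log2 fold changes of the calls lost with DESeq2 were close to those of edgeR: 0.09 for Hk2 and -0.09 for Pfkp in clone 1, and 0.08 for Hk2, 0.07 for Gpi1 and -0.13 for Pfkm in clone 2.

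Hk1 was lower in both clones and both media. In SL2i it had 126 and 127 CPM in clone 1 and 129 and 125 CPM in clone 2, against 164 and 165 CPM in chr8A. In SL it had 38.7 to 42.1 CPM in clone 1 and 38.4 to 40.6 CPM in clone 2, against 48.5 to 51.5 CPM in chr8A. No clone library reached a chr8A library. The log2 fold change was -0.38 ± 0.051 in clone 1 and -0.37 ± 0.051 in clone 2 in SL2i, and -0.31 ± 0.047 and -0.32 ± 0.045 in SL. EdgeR's largest adjusted p of the 4 was 2.34e-07. Over both media, Hk2 over Hk1 was higher than in chr8A by 0.37 on the log2 scale in clone 1 and by 0.36 in clone 2 (exact permutation p = 0.0167 in each, the smallest that 120 arrangements allow, and 0.0278 after adjustment over 10 ratio tests). By the same test, Pfkm over Pfkl differed by -0.215 in clone 1 and -0.177 in clone 2 (adjusted p = 0.0278 in each). Slc2a3 over Slc2a1 differed by -0.16 in clone 1 (adjusted p = 0.0278) and -0.179 in clone 2 (adjusted p = 0.0556). Pfkfb4 over Pfkfb3 differed by -0.355 in clone 1 (adjusted p = 0.117) and -0.502 in clone 2 (adjusted p = 0.0417). Pfkp over Pfkl is given below.

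Pfkp was lower in both clones in SL2i. It had 319 and 336 CPM in clone 1 and 338 and 326 CPM in clone 2, against 420 and 439 CPM in chr8A. These did not overlap, and the log2 fold changes were -0.39 ± 0.037 and -0.37 ± 0.037 (edgeR's larger adjusted p was 1.35e-14). In SL the differences were -0.09 ± 0.031 in clone 1 (adjusted p = 0.0246) and -0.05 ± 0.030 in clone 2, which was not called (adjusted p = 0.223). The clone 1 call of Pfkp in SL was lost with DESeq2, at equal depth (-0.06, adjusted p = 0.327) and with no filter. It was also lost without SL clone 1 replicate 1 (-0.09) or 3 (-0.08), or SL chr8A replicate 2 or 3 (-0.09 each).

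Pfkl moved the other way in SL2i. It had 210 and 213 CPM in clone 1, against 189 and 180 CPM in chr8A, a log2 fold change of 0.20 ± 0.041 (edgeR adjusted p = 8.23e-05), and 206 and 188 CPM in clone 2, which overlapped chr8A. The clone 2 value was 0.10 ± 0.042 (adjusted p = 0.0915). In SL neither clone was called for Pfkl. Averaged over both media, Pfkp over Pfkl was lower than in chr8A on the log2 scale. The differences were -0.34 in clone 1 (adjusted exact permutation p = 0.0417) and -0.28 in clone 2 (adjusted p = 0.0278). Most of the difference lay in SL2i, where the group means were 0.63 in clone 1, 0.75 in clone 2 and 1.22 in chr8A. In SL they were -1.42, -1.43 and -1.33 in the same order. The adjusted p of clone 1 reached 0.05 to 0.0556 without any 1 of 4 SL libraries (clone 1 replicates 1 and 3, chr8A replicates 2 and 3), at differences of -0.33 to -0.32.

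Slc2a1 was slightly higher in the clones in SL2i. It had 257 and 266 CPM in clone 1 and 267 and 238 CPM in clone 2, against 222 and 223 CPM in chr8A, with log2 fold changes of 0.23 ± 0.041 and 0.18 ± 0.041. The groups did not overlap. Both passed edgeR's test (adjusted p = 2.42e-06 in clone 1 and 3.16e-04 in clone 2). Without SL2i clone 2 replicate 1, which had the 267 CPM, the clone 2 value of Slc2a1 was 0.09 (adjusted p = 0.188). In SL, Slc2a1 was higher in clone 1, by 0.14 ± 0.028 (adjusted p = 9.78e-05), and not called in clone 2 (0.00 ± 0.028).

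Slc2a3 separated the clones in SL. It had 1764, 1777 and 1752 CPM in clone 2, against 2243, 2095 and 2226 CPM in chr8A, a log2 fold change of -0.31 ± 0.027 (edgeR adjusted p = 3.83e-17). Clone 1 had 2152, 2096 and 2133 CPM and overlapped chr8A (-0.04 ± 0.027, adjusted p = 0.34). In SL2i both clones were above chr8A, by 0.09 ± 0.034 in clone 1 (adjusted p = 0.0367) and 0.13 ± 0.034 in clone 2 (adjusted p = 0.00177). The Slc2a3 call of clone 1 in SL2i was lost without SL2i clone 1 replicate 1 or SL2i chr8A replicate 2 (0.08 each), with no filter, and with only those groups in the fit.

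Set against each other in SL, clone 2 was lower than clone 1 for Slc2a3 (-0.27 ± 0.027, edgeR adjusted p = 3.02e-13) and Slc2a1 (-0.14 ± 0.028, adjusted p = 3.99e-04). Those were 2 of the 10 genes, against 4.4% of all genes (1.69% higher, 2.71% lower), and none of the 10 was higher. In SL2i, 0 of the 10 differed by edgeR's test between the clones, against 0.157% of all genes; Gpi1 and Pfkl alone had an unadjusted p under 0.05, and DESeq2 called 0.

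The remaining clone differences called concerned Pfkfb3, Gpi1, Hk2 and Pfkm. Pfkfb3 was higher in clone 1 in SL, at 57.9, 56.0 and 57.1 CPM, against 51.6, 49.2 and 47.1 CPM in chr8A (0.21 ± 0.052, edgeR adjusted p = 0.00176), but at equal depth the adjusted p was 0.0622. In SL2i Pfkfb3 was higher in clone 2 by 0.65 ± 0.18 (adjusted p = 0.00414), and in clone 1 the value was 0.43 ± 0.19 (adjusted p = 0.0912). The clone 2 call of Pfkfb3 was lost without SL2i clone 2 replicate 1 (0.43, adjusted p = 0.199) or SL2i chr8A replicate 1 (0.49, adjusted p = 0.125). Gpi1 was higher in clone 1 in SL2i (0.15 ± 0.035, adjusted p = 3.56e-04). Hk2 was called in both clones in SL at 0.08, Gpi1 in clone 2 in SL at 0.08 and Pfkm in clone 2 in SL at -0.13. At equal depth none of these 4 calls was kept, at adjusted p-values of 0.132 to 0.413. The Hk2 call of clone 1 was lost without SL clone 1 replicate 1 (0.06) or 2 (0.07) or SL chr8A replicate 1 (0.08) or 3 (0.06). The Hk2 and Gpi1 calls of clone 2 were lost without SL clone 2 replicate 2 (0.06 each) or 3 (0.08 for Hk2 and 0.06 for Gpi1) or SL chr8A replicate 1 (0.08 for Hk2 and 0.05 for Gpi1) or 3 (0.06 for Hk2 and 0.05 for Gpi1). The Pfkm call was lost without SL clone 2 replicate 1 (-0.10) or 2 (-0.13) or SL chr8A replicate 2 (-0.11). Pfkfb4 was called in no clone comparison.

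**Figure D4:**
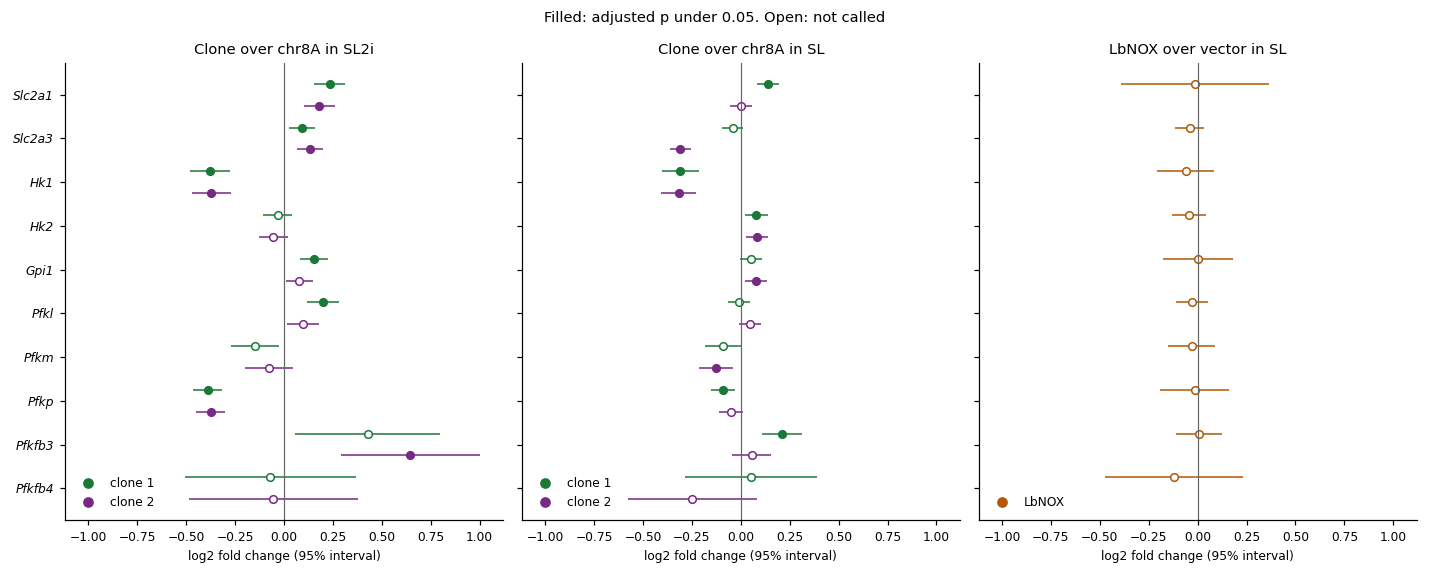
Log2 fold change of each gene with its 95% interval, for clones 1 and 2 over chr8A in SL2i, the same in SL, and LbNOX over vector in SL; filled points passed edgeR's test at an adjusted p under 0.05. Hk1 lies below 0 in both clones and both media, Pfkp lies near -0.4 in both clones in SL2i, and no gene passed in the LbNOX panel.

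Whether the medium effect itself differed between a clone and chr8A was tested as an interaction. For clone 1, 3 of the 10 genes passed, 2 higher and 1 lower, against 17% of all genes (7.78% higher, 9.24% lower). For clone 2, 5 passed, 3 higher and 2 lower, against 16.9% (7.69% higher, 9.18% lower). The interaction is the SL2i over SL change in the clone minus that in chr8A. For Pfkp it was -0.30 ± 0.048 in clone 1 and -0.32 ± 0.048 in clone 2 (edgeR adjusted p = 8.61e-07 and 6.43e-08), so its higher level in SL2i was less marked in both clones. For Slc2a3 it was 0.44 ± 0.043 in clone 2 (adjusted p = 1.09e-14) and 0.13 ± 0.043 in clone 1 (adjusted p = 0.0213). For Hk1 it was -0.07 ± 0.070 in clone 1 and -0.05 ± 0.068 in clone 2, neither called, with 95% intervals of -0.21 to 0.07 and -0.19 to 0.08. The other interactions called were Pfkl in clone 1 and Slc2a1, Pfkfb3 and Hk2 in clone 2.

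The LbNOX comparison asked whether an enzyme that oxidizes NADH changes the same transcripts. None of the 10 genes passed edgeR's test between LbNOX and vector cells, against 0.0372% of all 16119 genes tested, and none had an unadjusted p under 0.05; DESeq2 called 0 of the 10 as well. Slc2a1 had 701, 708 and 900 CPM in LbNOX cells, against 708, 911 and 711 CPM in vector cells. In each group 1 library stood apart, LbNOX replicate 3 and vector replicate 2. The same pair was low for Gpi1, at 405 CPM in LbNOX replicate 3 and 418 CPM in vector replicate 2, against 456 to 491 CPM in the other 4. It was low for Pfkp too, at 159 and 162 CPM, against 185 to 190 CPM in the other 4.

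The log2 fold change of Slc2a1 was -0.01 ± 0.15 with all 6 libraries (95% interval -0.39 to 0.37), and -0.01 ± 0.033 without that pair. Still 0 of the 10 genes was called without it, when 49 genes were called over the whole table in place of 6. The 95% interval of Pfkfb4, the rarest of the 10, was -0.48 to 0.23, and those of the other 8 lay between -0.21 and 0.18. Slc2a3 stood at 1147, 1144 and 1136 CPM in LbNOX cells and 1196, 1144 and 1186 CPM in vector cells. It stood at 2095 to 2243 CPM in SL chr8A cells of the other table, a level normalized separately and not tested.

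Around the pathway, the other genes listed for glucose handling moved both ways with the medium. Their counts are read against the share of all genes called, in chr8A 36.1% higher and 36.8% lower, with nearly the same shares in the clones. Of 11 other hexose carriers, 7 passed the filter. In chr8A and clone 1, 3 were higher and 4 lower, and in clone 2 3 were higher and 3 lower. In chr8A Slc5a1, the sodium-coupled carrier SGLT1, was at 21.3 CPM in SL2i and 1.39 CPM in SL (3.93 ± 0.15 on the log2 scale), Slc2a8 rose by 0.62 ± 0.10, and Slc2a6, at 1.52 CPM in SL, had no reads in SL2i. Slc2a8 stood at 22.7 CPM in SL2i, against 14.8 CPM in SL, far below Slc2a1. Of 3 other hexokinase and bifunctional enzyme genes reported here, Adpgk, whose enzyme phosphorylates glucose with ADP, rose in chr8A (0.24 ± 0.052) and clone 1 (0.12 ± 0.055). Pfkfb1 fell in those lines (-0.34 ± 0.11 and -0.28 ± 0.11). Pfkfb2 fell in clone 1 (-0.30 ± 0.10) and was not called in chr8A (0.15 ± 0.087), and none of the 3 was called in clone 2.

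Of 5 tested genes whose enzymes oppose upper glycolysis, 3 rose and 2 fell in chr8A, clone 1 had 2 higher and 1 lower, and clone 2 had 2 higher and 0 lower. In chr8A Tigar, whose product breaks down fructose 2,6-bisphosphate, had 167.5 CPM in SL2i and 48.9 CPM in SL (1.78 ± 0.045, edgeR adjusted p = 2.31e-60). It rose where Pfkfb3 fell. Fbp2, a fructose 1,6-bisphosphatase gene, had 3.95 CPM in SL2i and 0.435 CPM in SL (3.16 ± 0.32), and G6pc3, a glucose 6-phosphatase gene, had a log2 fold change of -0.45 ± 0.12.

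Below the committed step, 7 of 13 tested genes of lower glycolysis rose and 3 fell in chr8A, clone 1 had 4 higher and 4 lower, and clone 2 had 6 higher and 4 lower. In chr8A Eno1, the widely expressed enolase, was at 1009 CPM in SL2i and 759 CPM in SL (0.41 ± 0.035), and Eno3, the muscle enolase, was lower (-1.35 ± 0.071). Gapdh was at 411 CPM in SL2i and 26.9 CPM in SL, far below the other steps in SL. Gapdh shares 28.2% of its 30-base words with other genes, chiefly pseudogenes, and Eno1 shares 28.7%, so both values are uncertain. Of 8 genes of the pentose phosphate pathway, which branches off at glucose 6-phosphate, 5 rose and 2 fell in chr8A, led by Pgd at 0.63 ± 0.034, and clone 1 had 6 higher and 1 lower, and clone 2 had 5 higher and 1 lower. Of 8 tested glycogen genes 3 rose and 3 fell in chr8A, led by Gyg at -1.91 ± 0.13; clone 1 had 4 higher and 3 lower, and clone 2 had 4 higher and 2 lower. Of 7 hexosamine genes 4 rose and 3 fell in chr8A, led by Gfpt2 at -1.24 ± 0.061; clone 1 had 3 higher and 3 lower, and clone 2 had 2 higher and 3 lower.

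Among regulators, 7 of 24 HIF1 regulators and hypoxia target genes outside the 10 rose in SL2i in chr8A and 16 fell, when 36.1% of all genes were higher and 36.8% lower. Clone 1 had 6 higher and 17 lower, and clone 2 had 5 higher and 16 lower. In chr8A Pdk1, which restrains pyruvate dehydrogenase, was at 42.2 CPM in SL2i and 240.8 CPM in SL (-2.51 ± 0.048), and Ddit4, an inhibitor of mTORC1, at 25.4 CPM in SL2i and 193.9 CPM in SL (-2.93 ± 0.059). Ak4, an adenylate kinase gene, went the other way, at 500.3 CPM in SL2i and 65.5 CPM in SL, with 11.7% of its 30-base words shared with a pseudogene. The median over the 24 was -0.55 in chr8A, -0.81 in clone 1 and -0.63 in clone 2, beside 0.00, 0.00 and -0.01 for all genes. Of 4 genes listed for the Myc family, 2 were higher and 2 lower in SL2i in each line. Myc was at 8.41 CPM in SL2i and 56.7 CPM in SL (-2.75 ± 0.092) and Mycn at 98.2 CPM in SL2i and 293 CPM in SL (-1.58 ± 0.042), while Mycl rose by 0.86 ± 0.067. Of 5 genes of glucose sensing by MondoA and its relatives, 1 rose and 4 fell in chr8A, led by Mlxip at -0.55 ± 0.061 (median -0.39). The clones did not show this count: 0 rose and 1 fell in clone 1 (median 0.02), and 2 rose and 1 fell in clone 2 (median -0.08). Between LbNOX and vector cells 0 genes of any of these lists passed edgeR's test.

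The genes whose levels ran closest to the 4 most variable of the 10 were sought over the 6 group means of the first table, as the root mean square distance on the log2 scale after centring, among 9970 genes. Pfkfb3 was closest to Tor3a (0.07), Ripk4 (0.08) and Clu (0.09), and Slc2a1 to Thap2 (0.05), Cep170b (0.05) and Ssbp3 (0.06). Hk1 was closest to Lrig1 (0.04), Renbp (0.05) and Phyh (0.05), and Pfkp to Mfn1 (0.04), Nmrk1 (0.04) and Nup210 (0.05). With 6 groups that part mainly by medium, many genes lie close, and these distances are a description only.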

How the data were processed

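RNA from mouse ESCs was poly(A)-selected and made into libraries with a stranded kit, per the labels' protocols. The authors deposited raw counts per gene, made with DRAGEN 3.10, featureCounts and Subread on build GRCm39, per the submitters' processing notes; the sources used here do not say how strand was treated. The deposited tables also give a gene length, used here for levels per kb. The 10 genes were found by symbol, and the groups were taken from the sample titles. The genes and the lists beside them were chosen with earlier results of these data known.

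Each table was fitted separately with edgeR 4.0.16 in R 4.3.3, using filterByExpr, TMM factors and the robust quasi-likelihood F test, with each group given 1 mean, and p-values were adjusted by Benjamini-Hochberg over all genes tested, 16119 in the LbNOX table and 17178 in the other; an adjusted p under 0.05 was called. Ratios were log2 of normalized counts with a pseudocount of 0.5, tested by two-sided exact permutation within strata. The pipeline was tested on simulated data. Alternatives were RLE factors, other filters, DESeq2 1.42.0, a replicate block, only the groups compared, and each library left out in turn; equal depth and leaving out the pair of libraries that stood apart were added after the data were seen. Named outside the 10 were at most 3 genes per list with the smallest adjusted p, and the 3 nearest genes to each of the 4 most variable. A gene of these lists is not reported here. Shared sequence is the percent of a gene's 30-base transcript words found in another gene of the reference; values of genes at 5% or more are uncertain. No libraries were duplicates: between libraries of a group, chi-square per degree of freedom was 1.87 to 13.95. Replicate numbers did not pair the samples.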

Additional observations from a re-analysis of the deposited data

Results flagged for a closer look

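For 8 results the effect of the medium differed between a clone and chr8A by edgeR's interaction test, given as the log2 fold change of SL2i over SL in the clone minus that in chr8A. For Slc2a3 it was 0.44 in clone 2 (adjusted p = 1.09e-14). The SL2i libraries of clone 2 lay slightly above its SL libraries, a difference that was not called, while those of chr8A lay below. For Slc2a3 it was 0.13 in clone 1, a call lost without SL2i clone 1 replicate 1 (0.12), SL2i chr8A replicate 2 (0.12) or SL chr8A replicate 1 (0.12), and with no filter (0.13). For Pfkp it was -0.30 in clone 1 and -0.32 in clone 2, and all 4 clone libraries in SL2i lay below both chr8A libraries. For Pfkl it was 0.21 in clone 1 (adjusted p = 0.00113).

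Slc2a1 gave 0.18 in clone 2, a call that rested on SL2i clone 2 replicate 1 (0.10 without it, adjusted p = 0.24). Pfkfb3 gave 0.59 in clone 2, lost without the same library (0.38, adjusted p = 0.302) or SL2i chr8A replicate 1 (0.45, adjusted p = 0.204). Hk2 gave -0.14 in clone 2, which was lost with DESeq2, RLE factors, no filter, only the groups compared, at equal depth (-0.11), and without any 1 of 6 libraries: SL clone 2 replicate 2 (-0.11) or 3 (-0.13), SL chr8A replicate 1 (-0.13) or 3 (-0.11), SL2i clone 2 replicate 1 (-0.09) or SL2i chr8A replicate 2 (-0.06).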

How the results depend on the processing

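No fold change, count or ratio changed direction under an alternative in a way that reversed a call. Of 1550 recomputed log2 fold changes of the 10 genes, 1476 kept their call or their lack of one, 64 lost a call and 10 gained one. The 1476 include values that changed sign without being called, such as Gpi1 in LbNOX against vector, at -0.05 to 0.08. No setting moved the median of all genes by over 0.1. Members called: clone 1 against chr8A in SL, 5 in the main analysis, came to 3 with DESeq2, 3 with no filter and 2 at equal depth, and to 3 to 4 with a library left out. Clone 2 against chr8A in SL, also 5, came to 2 with DESeq2, 2 at equal depth and 2 to 4 with a library left out. Clone 2 against chr8A in SL2i, 5, came to 3 to 7 with a library left out, and the medium by clone 2 interaction, 5, to 2 to 5; in both the lowest count was without SL2i clone 2 replicate 1. All genes called: clone 1 against chr8A in SL, 2850 of 17178, came to 1793 of 12602 with DESeq2 and 1845 of 15779 at equal depth. Clone 2 against chr8A in SL, 4618, came to 2865 of 13775 and 2987 of 15779. With a library left out, these 2 comparisons came to 2031 to 2506 and 3667 to 3973. Clone 2 against chr8A in SL2i, 3531, came to 2358 to 2811 with a library left out, and the medium by clone 2 interaction, 2898, to 2142 to 2709. The member counts above are read beside these. Clone 2 against clone 1 in SL, 756, came to 383 with DESeq2, 417 at equal depth, 1223 with only the groups compared and 371 to 603 with a library left out; with RLE factors 27.3% of its calls were higher, against 38.5%. In SL2i, 27, it came to 11 with only the groups compared and 16 to 40 with a library left out; with RLE factors 42.9% were higher, against 55.6%. LbNOX against vector, 6, came to 14 with DESeq2, 24 with no filter, 49 without the pair of libraries that stood apart and 0 to 13 with a library left out. The causes were not tested. Of 190 recomputed ratio differences, 178 kept their side. With a library left out, Pfkp over Pfkl in clone 1 ranged from -0.37 to -0.30, and in clone 2 Pfkfb4 over Pfkfb3 ranged from -0.62 to -0.39, Pfkm over Pfkl from -0.20 to -0.16 and Slc2a3 over Slc2a1 from -0.23 to -0.13. Same-numbered libraries correlated at -0.51 to 0.39 in the LbNOX table (3 pairs) and -0.07 to 0.11 in the other (33 pairs), so the numbers pair nothing. With the replicate block LbNOX against vector gave 3 calls over all genes in place of 6, and Hk2 gained a call for SL2i against SL in clone 1 (-0.07, adjusted p = 0.0376); the block changed no other call of the 10. Depth limits Pfkfb3 and Pfkfb4 most, at 51 to 104 reads per SL2i library.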
